A study of Mus musculus with 13 samples.

Results

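TRAV11 and TRAJ18 are the variable and the joining segment of the T cell receptor (TCR) α chain that type I natural killer T (NKT) cells share in mice. The members described here were all clonotypes whose V gene was TRAV11 or its D or N copy, or whose J gene was TRAJ18, and they numbered 2676 of the 90369 clonotypes in 13 samples. Clonotypes differed in V gene, in J gene or in the nucleotides of CDR3, the junction at which V, J and inserted bases meet. A clonotype was called functional where its CDR3 translated without a stop codon or frameshift. Of the 78521 functional clonotypes, 420 joined TRAV11 to a J gene other than TRAJ18, 1711 joined TRAJ18 to another V gene, and 29 joined the segments to each other. A further 278, 217 and 21 clonotypes of these 3 classes were non-functional.

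Each developing T cell rearranges the Tcra locus by joining 1 V to 1 J segment, and it can repeat the process with V segments farther upstream and J segments farther downstream. NKT cells recognise lipids on CD1d, and their TRAV11-TRAJ18 chain has a CDR3 of fixed length in which the residues around the joint vary little. TRAV11 joined to other J genes and TRAJ18 joined to other V genes occur in conventional T cells. For that reason a chain was called NKT-type here only where it was a TRAV11-TRAJ18 pair with a CDR3 of 15 residues. Residues were counted from the position of the conserved cysteine to that of the phenylalanine. An α chain without its β chain names no cell, so NKT-type describes the chain and not the cell that carried it.

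The samples were rescued regulatory T (Treg) cells of male C57BL/6 mice with the genotype Foxp3LSL/y Cd4creERT2. In this strain the Foxp3 gene is silenced by a removable cassette that carries a Thy1.1 reporter, and a tamoxifen-inducible Cre driven by Cd4 removes it, which restores Foxp3 with a GFP reporter in cells that express Cd4. All mice were given the tamoxifen metabolite 4-OHT at day 14 of life, so no group was untreated. Cells were sorted as TCRβ+CD4+GFP+Thy1.1- from spleen and lymph nodes 1.5 months (n = 2, labelled 8 weeks of age), 3 months (n = 4, 3.5 months of age), 5 months (n = 2, 5.5 months of age) or 7 months (n = 5, 7.5 months of age) later. The gate stated for these libraries names no NK1.1 antibody, whereas the general Treg gate of the study excludes NK1.1-positive cells. The labels did not say that replicates came from separate animals, so p-values measure the spread between these samples, which may be technical. The libraries held 509818 to 936831 counts and 4828 to 7998 functional clonotypes each, and the labels gave no batch. Of the 78 pairs of libraries, 3 months replicate 4 shared most with 5 months replicate 1 (6.24% of their combined functional clonotypes) and with 1.5 months replicate 1 (5.59%), against a median of 1.59%.

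The germline ends that meet in the junction are shown first, since the observed CDR3s are read against them. In the GENCODE annotation of GRCm38, the genome build named for the tables, both segments lie on the plus strand of chromosome 14. Trav11 (53519303 to 53519859) and Traj18 (54200777 to 54200842) are 681 kb apart. Capitals mark the bases that belong to the CDR3 when nothing is trimmed.

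TRAV11 end: TGTGTGGTGGGCG

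TRAJ18: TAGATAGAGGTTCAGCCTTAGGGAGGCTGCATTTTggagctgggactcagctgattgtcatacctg

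The locus holds 2 further copies of TRAV11. Trav11d (52824357 to 52824912) had 0 mismatches to Trav11 over the 342 transcript bases compared, and no clonotype carried its name, so clonotypes named TRAV11 can come from either copy. Trav11n (53135122 to 53135678) is annotated as a pseudogene, differed from Trav11 at 8 of 343 bases and has an in-frame stop codon within the segment. The tables named TRAV11 for 650 clonotypes and TRAV11N for 98, and 29 of the latter were counted as functional because the label rests on the CDR3 alone.

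The question for the pair was whether NKT-type chains were present among the rescued Treg cells. The 29 functional TRAV11-TRAJ18 clonotypes were found in 11 of 13 samples. Their CDR3s ran from 13 to 18 residues, and 16 of the 29 (55.2%) had 15. The 5 nucleotide sequences with the highest mean share of functional counts are given next, with capitals marking the bases that the tables place between V and J.

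Pair 1: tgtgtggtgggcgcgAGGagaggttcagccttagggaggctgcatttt

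Pair 2: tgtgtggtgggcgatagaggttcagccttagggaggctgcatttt

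Pair 3: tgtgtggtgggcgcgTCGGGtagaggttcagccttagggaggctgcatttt

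Pair 4: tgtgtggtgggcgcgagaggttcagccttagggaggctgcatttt

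Pair 5: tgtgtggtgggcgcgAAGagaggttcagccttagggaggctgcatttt

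Pair 1 was the largest functional pair clonotype, with 421 counts in 5 months replicate 1, and had 16 residues. Pair 2 had 15 residues and 313 counts in all, which came from 3 samples, 7 months replicate 4 (189 counts), 5 months replicate 2 (66 counts) and 7 months replicate 1 (58 counts). It was the only pair nucleotide sequence found in more than 1 sample. Pair 2 consists of the 13 germline TRAV11 bases shown above followed by the last 33 CDR3 bases of TRAJ18 with an overlap of 1 base, and no base in it came from neither segment. Pair 3 (17 residues, 339 counts) and pair 4 (15 residues, 235 counts) came from 1.5 months replicates 1 and 2. Pair 5 (16 residues) had 194 counts in 7 months replicate 3. The tables extend V past the annotated end in pairs 1, 3, 4 and 5, so 5, 7, 2 and 5 of their bases matched neither germline segment, against 3, 5, 0 and 3 capitals.

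The germline-joined protein of pair 2 was also encoded by 2 other nucleotide sequences, both in 3 months replicate 3. They are shown because they differ from pair 2 in nucleotides and not in the encoded CDR3. Sequences a and b differ from each other by 1 base, outside the bases between V and J, where a departs from the germline TRAV11 end. Whether a and b are separate rearrangements was not tested.

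Same protein as pair 2, a: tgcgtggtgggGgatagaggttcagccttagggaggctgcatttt

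Same protein as pair 2, b: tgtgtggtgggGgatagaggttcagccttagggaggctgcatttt

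Sequence a had 144 counts and sequence b had 132, and both had 1 base between V and J. The germline-joined 15-residue protein was therefore present in 4 of 13 samples, in 5 clonotypes with 589 counts. At the level of amino acids, the 29 pair clonotypes made 21 distinct CDR3s, of which 3 were found in more than 1 sample and 18 in 1 sample.

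Pairs of 15 residues, called NKT-type by segments and length alone, were found in 9 of 13 samples, and in 8 with at least 10 counts. Without the TRAV11N copy these numbers were 8 and 7, since the only such pair of 7 months replicate 3 was named TRAV11N. Of these 16 clonotypes, 5 encoded the germline-joined protein of pair 2 and 11 differed from it by 1 to 4 residues. Among the 11, a clonotype of 1 count in 1.5 months replicate 1 ended in ttg, which does not encode phenylalanine. In 5 of the 9 samples, both of the 1.5-month group, 5 months replicate 1 and 7 months replicates 2 and 3, all 15-residue pairs were among those that differed. At 1.5 months the 15-residue pairs took 0.0119% of functional counts in replicate 1 (95% Wilson interval 0.00937% to 0.0152%) and 0.0710% in replicate 2 (0.0645% to 0.0782%). At 3 months they took 0.0551% in replicate 3 (0.0496% to 0.0612%), and no count in replicates 1, 2 and 4, where the detection limit of 3 counts was 4.02e-04%, 3.40e-04% and 5.29e-04% (the upper Wilson bounds were 5.15e-04%, 4.35e-04% and 6.77e-04%). At 5 months the shares were 0.0131% (0.0104% to 0.0165%) and 0.0122% (0.00959% to 0.0155%). At 7 months they were 0.00999% in replicate 1, 3.79e-04% in replicate 2 (2 clonotypes of 1 count each, under the limit of 3 counts, which was 5.69e-04%), 0.0351% in replicate 3 (the TRAV11N clonotype) and 0.0396% in replicate 4, with none in replicate 5, where the limit of 3 counts was 5.64e-04% and the upper Wilson bound 7.23e-04%. The samples with no NKT-type chain lay in the 3-month and 7-month groups, and the ranges of the groups overlapped. Intervals and limits cover counting error only, since it is not stated whether a count is a read or a molecule.

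Functional pairs of any length were spread differently between samples than those of 15 residues. Pair counts were 407 and 414 in the 1.5-month samples, 0, 148, 431 and 0 in the 3-month samples, 634 and 113 in the 5-month samples, and 61, 125, 363, 234 and 1 in the 7-month samples. Of the 29 clonotypes, 20 had at least 10 counts and 7 had a single count. Among the 9 with fewer than 10 counts, 4 lay within 2 mismatches of a larger TRAJ18 clonotype of the same sample. For none of the 29 did another library hold the same sequence at 100 times the count or more. No pair clonotype was among the 100 largest of its sample, where 1.66% of all functional clonotypes lay, so few would be found there among 29.

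**Figure D1:**
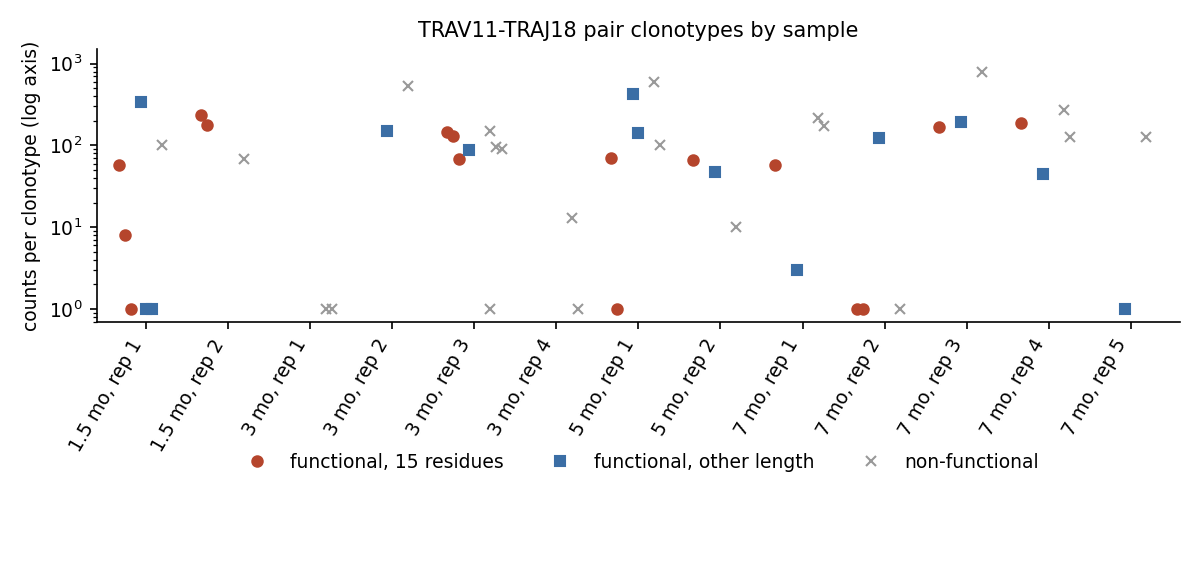
Counts of each TRAV11-TRAJ18 clonotype (log axis) in each of the 13 samples (horizontal axis), with circles for functional CDR3s of 15 residues, squares for functional CDR3s of other lengths and crosses for non-functional clonotypes. Functional pairs reach 421 counts and are missing in 3 months replicates 1 and 4. Non-functional pairs reach 784 counts and appear in every sample, but only as single counts in 3 months replicate 1 and 7 months replicate 2.

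A comparison was made between the pair and what the use of each segment alone would give. In each sample the expected share was the product of the TRAV11 and TRAJ18 shares of functional clonotypes. The expected number summed to 9.90 clonotypes against 29 observed, a ratio of 2.93. The observed share exceeded the product in 11 of 13 samples by a mean of 0.0246 percentage points ± 0.0248 (SD, n = 13), which was larger than zero by an exact two-sided sign-flip permutation test (p = 0.00439, Benjamini-Hochberg adjusted p = 0.00659 over 9 within-sample comparisons). Since 0.328 to 1.05 pairs were expected per sample, 1 or 2 clonotypes placed a sample above its expectation. In 7 months replicate 5 it was 1 clonotype of 1 count, under the limit of 3 counts. With at least 10 counts required, the mean excess was 0.0229 percentage points (exact permutation p = 0.0125).

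Among clonotypes that cannot make a protein, the pair also exceeded its expectation, but without the TRAV11N copy the excess no longer passed the test. In all, 21 non-functional pairs were observed against 5.96 expected, a ratio of 3.52, and each of the 13 samples lay above its expectation of 0.164 to 0.731. The mean excess of 0.132 percentage points had an exact permutation p of 0.000244, the smallest that 13 samples allow, in a comparison added after seeing the data. Without TRAV11N, 11 non-functional pairs stood against 4.40 expected (a ratio of 2.50), 7 of 13 samples lay above expectation and 6 held no such pair. The mean excess was then 0.0618 percentage points and missed the threshold (exact permutation p = 0.0818). Among functional clonotypes without TRAV11N the ratio was 3.03 (28 against 9.24), with an exact permutation p of 0.00488 for the excess. The largest TRAV11-TRAJ18 clonotype of all was non-functional, with 784 counts in 7 months replicate 3, and the table named its V gene TRAV11N. Whether the 2 ratios differ was not tested.

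For reference, the invariant α chain of mucosal-associated invariant T cells, TRAV1 joined to TRAJ33 with 12 residues, was found in 1 clonotype with 106 counts, among 7 functional TRAV1-TRAJ33 clonotypes of 5 samples.

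TRAV11 with J genes other than TRAJ18 made up 420 of the 449 functional TRAV11 clonotypes. Functional TRAV11 was joined to 31 J genes, and TRAJ32 was the most frequent partner with 14.5% ± 8.60 (SD, n = 13) of TRAV11 clonotypes against 2.39% ± 0.303 of clonotypes with other V families. TRAJ27 followed with 13.5% ± 7.03 against 3.93% ± 0.262. TRAJ34 took 8.05% ± 4.54 against 3.12% ± 0.197, and TRAJ26 took 7.72% ± 5.12 against 3.00% ± 0.193. TRAJ18 itself was the fifth with 6.62% ± 4.20 against 2.20% ± 0.171. TRAJ27 was above the other V families in 13 samples, TRAJ32 in 12, and each of the other 3 in 11. A sample held 15 to 54 functional TRAV11 clonotypes, which limits the precision of these shares.

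Ratios of observed to expected clonotypes place TRAJ18 among several favoured partners. Within functional TRAV11, 33 J genes had at least 5 clonotypes expected. Of these, TRAJ32 had the highest ratio (6.31, 70 clonotypes against 11.1 expected), followed by TRAJ27 (3.51, 63 against 17.9) and TRAJ18 (2.93). TRAJ35 (2.77), TRAJ33 (2.67), TRAJ26 (2.57) and TRAJ34 (2.45) were close to it. Among all 783 combinations of V family and J gene with at least 5 expected, the TRAV11-TRAJ18 pair ranked 31st. At the other end, 9 of the 33 J genes were joined to no functional TRAV11 clonotype. They included TRAJ23 with 20.2 clonotypes expected, TRAJ13 with 18.8 and TRAJ37 with 16.3, which were named after their values were seen. The order of ratios differed among non-functional TRAV11 clonotypes. Their pooled share over that of other V families was 1.65 for TRAJ32, against 3.85 for TRAJ35, 3.74 for TRAJ18 and 3.69 for TRAJ27. The same ratio among functional clonotypes was 6.51 for TRAJ32, 2.78 for TRAJ35, 2.95 for TRAJ18 and 3.57 for TRAJ27. TRAJ32 was still the most frequent J gene of non-functional TRAV11, with 79 of 299 clonotypes (26.4%). It also took 16.0% of non-functional clonotypes with other V families. Among functional clonotypes its pooled shares were 15.6% with TRAV11 and 2.40% with other V families.

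**Figure D2:**
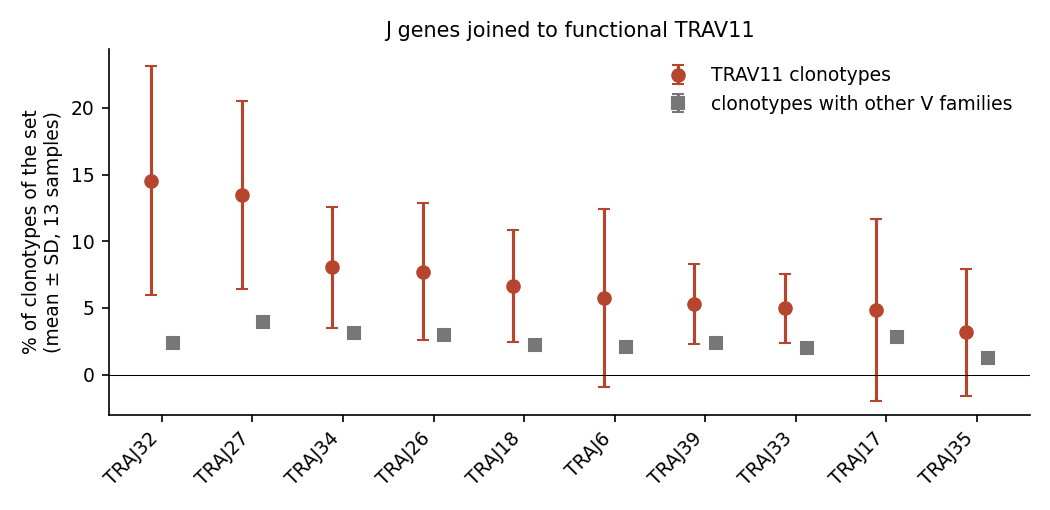
Share of each J gene (vertical axis, % of clonotypes, mean ± SD over 13 samples) for the 10 J genes most often joined to functional TRAV11, in TRAV11 clonotypes (circles) and in functional clonotypes of all other V families (squares). TRAJ18 is the fifth at 6.62%, below TRAJ32 at 14.5% and TRAJ27 at 13.5%.

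The largest TRAV11 clonotype at each time point carried a J gene other than TRAJ18. The sequences of the largest at each time point are given with capitals for bases between V and J.

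Largest at 1.5 months, TRAV11-TRAJ21: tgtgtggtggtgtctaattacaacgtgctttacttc

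Largest at 3 months, TRAV11-TRAJ27: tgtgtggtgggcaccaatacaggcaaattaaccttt

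Largest at 5 months, TRAV11-TRAJ27: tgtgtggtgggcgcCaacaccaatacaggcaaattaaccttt

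Largest at 7 months, TRAV11-TRAJ4: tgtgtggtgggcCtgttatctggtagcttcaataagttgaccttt

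The TRAV11-TRAJ21 clonotype had 1059 counts in 1.5 months replicate 2, which was 0.182% of functional counts (95% Wilson interval 0.171% to 0.193%). The 12-residue TRAV11-TRAJ27 clonotype had 2006 counts in 3 months replicate 4 (0.353%, 0.338% to 0.369%). The same sequence was found in 5 other samples with 1 or 2 counts each, under the limit of 3 counts. The 5-month and 7-month sequences had 711 counts in 5 months replicate 2 (0.131%, 0.122% to 0.141%) and 1180 counts in 7 months replicate 5 (0.222%, 0.210% to 0.235%), and each had 1 count in 1 other sample. All 4 were larger than any of the functional TRAV11-TRAJ18 pairs, whose highest count was 421. Of the TRAV11 clonotypes with other J genes, 9 of 420 (2.14%) were among the 100 largest of their sample, against 1.66% of all functional clonotypes and 2.69% of TRAJ18 clonotypes with other V genes (46 of 1711).

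TRAJ18 with other V genes was the main use of the J segment, 1711 of 1740 functional TRAJ18 clonotypes. TRAJ18 was joined to 18 V families. TRAV7 took 24.5% ± 3.84 (SD, n = 13) of TRAJ18 clonotypes against 18.7% ± 0.770 of clonotypes with other J genes, and was above in 12 of 13 samples. TRAV12 took 14.1% ± 3.17 against 11.4% ± 0.510 and was above in 11 samples. TRAV14 went the other way, with 10.0% ± 3.24 against 15.1% ± 0.455, and was above in 0 samples. TRAV4 (9.61% ± 3.31 against 10.0% ± 0.647) and TRAV6 (8.68% ± 1.74 against 9.39% ± 0.507) differed from the other J genes by less than the SDs of the TRAJ18 shares. TRAV11 supplied 1.72% ± 1.2 of functional TRAJ18 clonotypes and ranked 14th among the 18 families.

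Read from the V side, TRAV11 had the highest share joined to TRAJ18 of the 19 V families with at least 100 functional clonotypes. That share was 6.46% (29 of 449, 95% Wilson interval 4.53% to 9.12%) for TRAV11 and 5.95% (35 of 588, 4.31% to 8.17%) for TRAV1, and the intervals overlapped. These intervals treat clonotypes pooled over the 13 samples as independent, and they do not cover the spread between samples. The next family, TRAV8, was at 2.95% (2.32% to 3.73%). The lowest shares were 0.252% for TRAV17 (2 of 793) and 0.295% for TRAV19 (2 of 679), and TRAV21 had 0 of 883, which allows up to 0.433% by its Wilson bound. Among non-functional clonotypes TRAV11 was again highest, with 7.02% (21 of 299, 4.64% to 10.5%) or 4.78% without TRAV11N (11 of 230), followed by TRAV7 with 2.87%. TRAV1 was at 2.63% there (10 of 380, 1.44% to 4.78%).

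**Figure D3:**
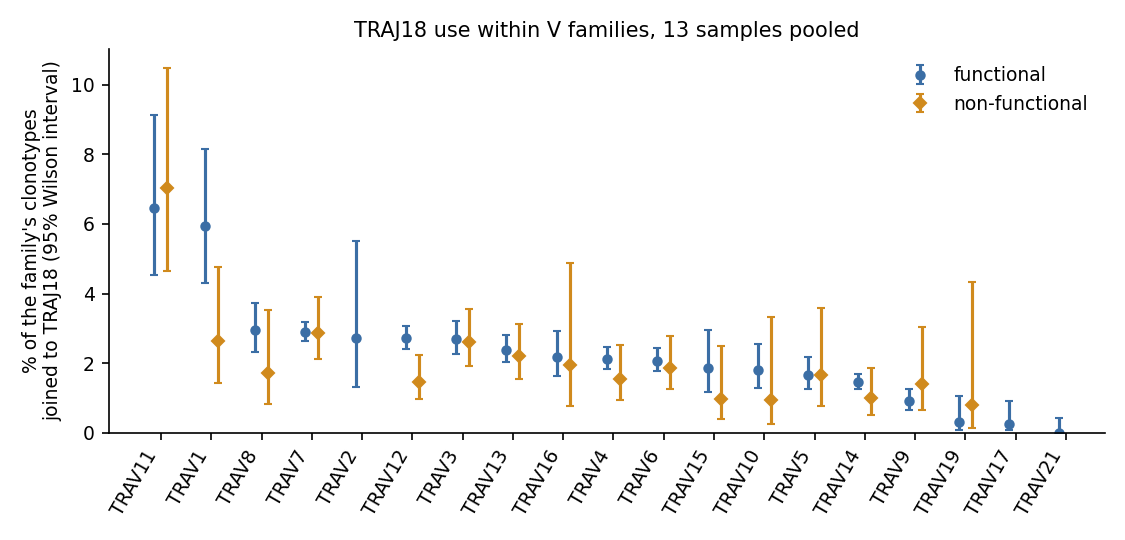
Share of each V family's clonotypes joined to TRAJ18 (vertical axis, %, 13 samples pooled) with 95% Wilson intervals, for functional clonotypes of 19 V families (circles) and non-functional clonotypes of 16 of them (diamonds), ordered by the functional share. TRAV11 is highest in both sets, at 6.46% and 7.02%. The intervals do not cover the spread between samples.

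TRAJ18 clonotypes with other V genes reached up to 2990 counts, against 421 for the pair, among far more clonotypes. The largest of each time point by share of functional counts and the sequence found in the most samples are shown, again with capitals for bases between V and J.

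Largest at 1.5 months, TRAV4D-4-TRAJ18: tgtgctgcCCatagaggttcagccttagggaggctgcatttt

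Largest at 3 months, TRAV7-4-TRAJ18: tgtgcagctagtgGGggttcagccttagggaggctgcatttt

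Largest at 5 months, TRAV16N-TRAJ18: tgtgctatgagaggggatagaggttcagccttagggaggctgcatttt

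Largest at 7 months, TRAV13N-4-TRAJ18: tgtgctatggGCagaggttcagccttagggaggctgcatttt

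Most shared, TRAV13D-2-TRAJ18: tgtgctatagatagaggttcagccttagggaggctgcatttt

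In the order shown, the 4 largest had 1107, 2194, 1865 and 2261 counts. Their shares of functional counts were 0.190% (1.5 months replicate 2), 0.387% (3 months replicate 4), 0.345% (5 months replicate 2) and 0.474% (7 months replicate 4). The TRAV13D-2 sequence, which has 14 residues and no inserted base, was found in 8 samples with 46 to 1313 counts. Unlike the most shared TRAV11 sequence, it was well above 1 or 2 counts in each of them. A TRAV7D-2-TRAJ18 sequence without inserted bases was found in 7 samples with 47 to 1316 counts. At the amino-acid level, 2 of the 816 distinct TRAJ18 CDR3s with other V genes were found in all 13 samples, and up to 12 nucleotide sequences encoded the same CDR3. By that definition 30.8% of TRAJ18 CDR3s with other V genes occurred in more than 1 sample, against 28.9% of those with neither segment and 16.3% of TRAV11 CDR3s with other J genes and 14.3% of the pairs, differences that were not tested. Near-identical duplicated V genes can split the nucleotide clonotypes, so these V names are less certain than the families.

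Mean CDR3 length differed between the classes, whose lengths overlapped widely. TRAJ18 with other V genes had CDR3s 1.13 residues longer ± 0.116 (SD, n = 13) than clonotypes with neither segment. The within-sample difference ran from 0.937 to 1.32 residues. It was positive in 13 of 13 samples (exact sign-flip permutation p = 0.000244, the smallest possible, adjusted p = 0.000549). Untrimmed TRAJ18 gives 35 CDR3 bases in every clonotype of this class, while the clonotypes with neither segment mix many J genes. How much of the difference comes from germline J length was not tested. TRAV11 with other J genes was longer by 0.562 residues ± 0.850 (SD, n = 13), in 11 of 13 samples (exact permutation p = 0.00220, adjusted p = 0.00396). That mean and its SD rest partly on 7 months replicate 4, where the difference was 3.23 residues because 3 TRAV11-TRAJ17 clonotypes of 1 count each had 42 residues. Without that sample the difference was 0.339 residues, and with CDR3s of more than 20 residues left out in all samples it was 0.333 (exact permutation p = 0.00317).

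CDR3s of 15 residues, the NKT-type length, were common in both conventional classes. They made up 13.1% of clonotypes with neither segment, 21.9% of TRAV11 clonotypes with other J genes, 35.3% of TRAJ18 clonotypes with other V genes and 55.2% of the pairs. Most CDR3s of this length in the tables therefore lay outside the pair.

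**Figure D4:**
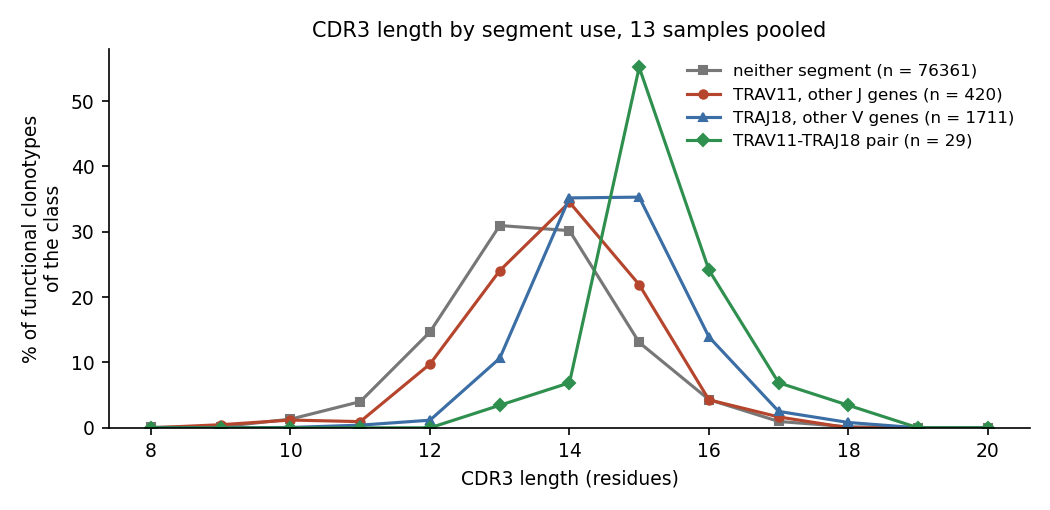
CDR3 length (horizontal axis, residues from 8 to 20) against the share of functional clonotypes of each class (vertical axis, %, 13 samples pooled), for clonotypes with neither segment, TRAV11 with other J genes, TRAJ18 with other V genes and the pair. The pair peaks at 15 residues with 55.2%, and the class with neither segment at 13 residues with 31.0%.

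Fewer bases lay between V and J in TRAJ18 clonotypes with other V genes than in clonotypes with neither segment. The mean difference was -0.352 bases ± 0.236 (SD, n = 13), negative in 13 of 13 samples (exact permutation p = 0.000244, adjusted p = 0.000549). Weighted by counts it was -0.203 bases and missed the threshold (exact permutation p = 0.0615). TRAV11 with other J genes differed by 0.123 bases ± 1.97 (exact permutation p = 0.982). That comparison turned with 7 months replicate 4, without which it was -0.403 bases (exact permutation p = 0.0356).

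Clone size, the count of a clonotype, was compared through medians within samples. TRAJ18 clonotypes with other V genes had a median of 66 counts over all samples, against 54 for clonotypes with neither segment. The log2 difference of medians was 0.35 ± 0.20 (SD, n = 13), positive in 13 of 13 samples (exact permutation p = 0.000244, adjusted p = 0.000549). It fell to 0.28 with at least 2 counts required (exact permutation p = 0.000244) and to 0.17 with at least 10 (exact permutation p = 0.00366). TRAV11 with other J genes had a median of 56.5 counts, and its log2 difference was -0.01 ± 0.74 (exact permutation p = 0.968). Single-count clonotypes made up 24.0% of the TRAV11 class and 17.3% of the class with neither segment. With at least 2 counts required, the TRAV11 difference became 0.35 (exact permutation p = 0.0288), and with at least 10 counts 0.43 (p = 0.00195), so its sign and its call depended on the smallest clonotypes. The pairs had a median of 68 counts, which was not tested because 2 samples held none.

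TRAV11 was rarer among functional than among non-functional clonotypes. It took 0.568% ± 0.125 (SD, n = 13) of functional and 2.54% ± 0.842 of non-functional clonotypes, a difference of -1.97 percentage points ± 0.844 in the same direction in 13 of 13 samples (exact permutation p = 0.000244, adjusted p = 0.000549). Of all TRAV11 clonotypes, 39.97% were non-functional, against 39.3% for TRAV1, the family next to it among the 19 ranked. The share was 70.4% for clonotypes named TRAV11N and 35.4%, below that of TRAV1, for those named TRAV11, in both cases by frameshift only, against 12.9% for clonotypes with neither segment. With TRAV11N left out the difference was -1.44 percentage points (exact permutation p = 0.000244). Weighted by counts, with TRAV11N kept, it was -3.81 percentage points (exact permutation p = 0.000244). TRAJ18 took 2.22% ± 0.157 of functional and 2.02% of non-functional clonotypes, a difference of 0.201 percentage points ± 0.539 that did not pass the test (exact permutation p = 0.203). A non-functional transcript can come from the second Tcra allele of a cell that also makes a functional chain, and the tables do not link the alleles.

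The time course asked whether these segments were gained or lost as rescued Treg cells persisted. TRAV11 took 0.675% and 0.477% of functional clonotypes at 1.5 months, and 0.506%, 0.263%, 0.637% and 0.631% at 3 months. It took 0.501% and 0.601% at 5 months, and 0.474%, 0.661%, 0.551%, 0.694% and 0.718% at 7 months. The group means were 0.576% ± 0.140 (SD, n = 2), 0.509% ± 0.175 (n = 4), 0.551% ± 0.0704 (n = 2) and 0.620% ± 0.104 (n = 5), and all groups overlapped. The 7-month mean was 0.0435 percentage points above the 1.5-month mean, less than the pooled SD of 0.133 (exact permutation p = 0.943 over 540540 arrangements). That difference was -0.127 weighted by counts, -0.0574 with a replicate block and -0.0154 with non-functional clonotypes kept. It was -0.0555 without 1.5 months replicate 2 and 0.142 without replicate 1, and positive under the other alternatives.

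TRAJ18 was used by more clonotypes. Its shares were 1.95% and 2.34% at 1.5 months, and 2.39%, 2.19%, 1.94% and 2.43% at 3 months. They were 2.36% and 2.32% at 5 months, and 2.21%, 2.23%, 2.26%, 2.16% and 2.07% at 7 months. The range of the 3-month samples covered those of all other time points. The differences from 1.5 months were 0.0947, 0.193 and 0.0425 percentage points at 3, 5 and 7 months (exact permutation p = 0.843, 0.512 and 0.981). Their signs and sizes depended on the 1.5-month samples. Without replicate 1 of that group they were -0.0998, -0.00110 and -0.152, and without replicate 2 they were 0.289, 0.388 and 0.237.

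The pair took 0.0750% and 0.0308% of functional clonotypes at 1.5 months, 0%, 0.0175%, 0.0654% and 0% at 3 months, and 0.0742% and 0.0414% at 5 months. At 7 months it took 0.0395%, 0.0472%, 0.0356%, 0.0397% and 0.0163%. The 3-month group held both the samples without a pair and one of the highest values. The largest difference from 1.5 months was -0.0322 percentage points at 3 months (exact permutation p = 0.292). Leaving out 3 months replicate 3 made it -0.0471 (exact permutation p = 0.0379), the only left-out sample that brought a time difference of these segments past the threshold. None of the 9 differences passed after adjustment (adjusted p = 0.991 for each). No trend over months was found for TRAV11 (Pearson's r = 0.281 with a permutation p of 0.365, and Spearman's rho = 0.247 with a permutation p of 0.408, n = 13), TRAJ18 (r = 0.0107, permutation p = 0.972, rho = -0.124, p = 0.688) or the pair (r = 0.00916, permutation p = 0.976, rho = 0.0144, p = 0.965). Adjusted over the 3 trends, the p-values for r and for rho were 0.976 and 0.965 for each measure. Without the 2 samples of the 1.5-month group, which lie farthest from the median month, r was 0.404, -0.189 and 0.269.

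**Figure D5:**
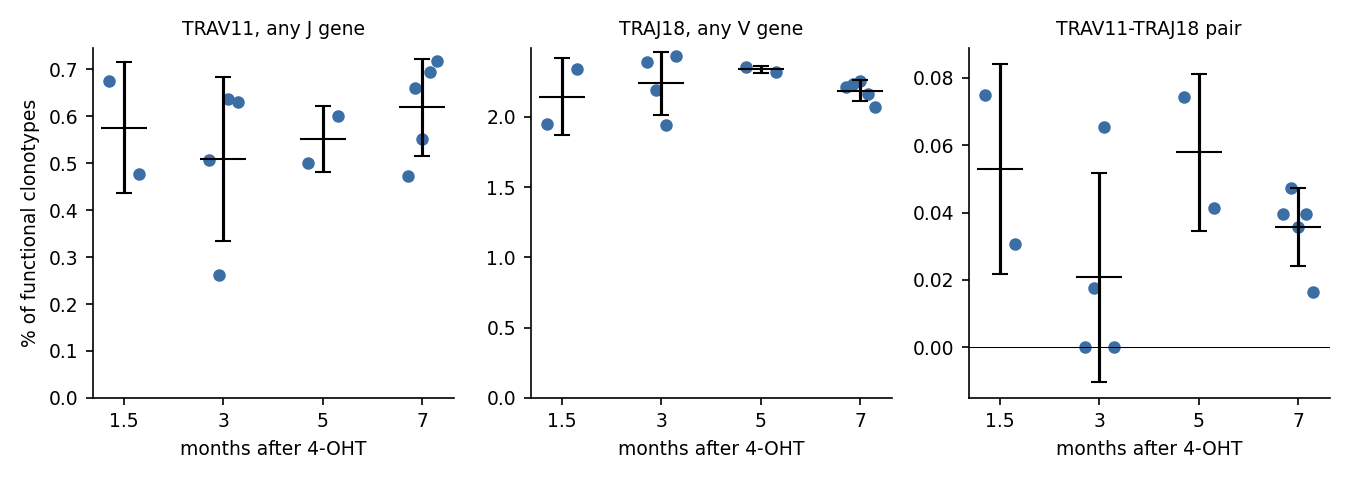
Share of functional clonotypes (vertical axis, %) with TRAV11, with TRAJ18 and with the TRAV11-TRAJ18 pair, by months after 4-OHT (horizontal axis), with a point for each sample and the mean ± SD of each group. The groups overlap in all 3 panels, except that both 5-month samples lie above the 7-month samples for TRAJ18, and the pair is at 0 in 2 of the 3-month samples.

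The same question was put to the use of all segments at once, through the number of functional clonotypes per V family and per J gene. In the edgeR quasi-likelihood test, 0 of 19 V families (0%) passed an adjusted p of 0.05 between 7 and 1.5 months, and 0 of 19 (0%) between 7 and 3 months. At an unadjusted p under 0.05 there were 3 and 1, and DESeq2 called 0 in both comparisons. TRAV9, at an edgeR adjusted p of 0.058 between 7 and 1.5 months, passed with a replicate block (edgeR adjusted p = 2.77e-05). It also passed under other alternatives, given with the processing below. TRAV7 and TRAV14 passed between 7 and 3 months with summed counts. For J genes the test called 0 of 43 (0%) in both comparisons, with 0 and 2 at an unadjusted p under 0.05 and 0 by DESeq2. The log2 fold change of TRAV11 was 0.05 (SE 0.26, edgeR adjusted p = 0.843) from 1.5 to 7 months and 0.24 (SE 0.22, edgeR adjusted p = 0.696) from 3 to 7 months. For TRAJ18 it was 0.04 (SE 0.11, edgeR adjusted p = 0.978) and -0.05 (SE 0.087, edgeR adjusted p = 0.901). TRAV11 and TRAJ18 were not among the segments with an unadjusted p under 0.05.

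The segments whose shares followed those of TRAV11 most closely over the 13 samples were TRAV17 (Pearson's r = 0.585), TRAV16 (0.523) and TRAV5 (0.417), among 18 other V families. For TRAJ18 they were TRAJ45 (r = 0.657), TRAJ16 (0.506) and TRAJ6 (0.473), among 42 other J genes. These are the highest of many values from shares that share a total and libraries, and are given as a description only.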

How the data were processed

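The α chains of sorted rescued Treg cells were amplified by 5′ RACE and sequenced in 13 samples, whose groups and replicate numbers came from the sample titles. The authors assembled clonotypes with MiXCR and applied the error correction of VDJtools, which drops small clonotypes within 2 mismatches of a much larger clonotype. The deposited tables give a raw count per clonotype, and whether it is of reads or of molecules is not stated. The authors also give a fraction of the sample's counts, which was not used. Positions of the V end and J start in the CDR3, as deposited, gave the number of bases between them. The build named for the tables is GRCm38, and the GENCODE M21 annotation and transcripts of that build gave the positions and germline sequences.

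Functional clonotypes had a CDR3 of letters only, as in the study's methods, and the 104 clonotypes with a TCR δ segment were kept in the totals. Median counts of functional clonotypes were 36 to 100 per sample, and 3 counts, the detection limit, correspond to 3.40e-04% to 6.29e-04% of functional counts. Shares per sample were computed in Python 3.11.15 (scipy 1.17.1, pandas 2.3.3, numpy 2.4.6). In the study, later time points were set against 1.5 months by analysis of variance, and with groups this small the same comparisons were made here by a two-sided exact permutation test with the maximum over 3 comparisons as correction. Trends used 100000 permutations, and within-sample comparisons an exact two-sided sign-flip test over 8192 arrangements. Segment use was tested in R 4.3.3 by edgeR 4.0.16 (TMM, filterByExpr, quasi-likelihood test, Benjamini-Hochberg adjustment, 1 model over all groups), with DESeq2 1.42.0 as an alternative. Code was tested on simulated data. Figures were drawn with matplotlib 3.10.9.

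The members, lists and tests were chosen with earlier results of these data known. Named were the 5 most frequent partners of each segment by mean share, the 5 pair sequences with the highest mean share and the most shared ones, the largest clonotype of each class at each time point, and 3 segments with the most similar shares. Alternatives were a minimum of 2 or 10 counts, weighting by counts, equal depth (477052 counts, 10 draws), non-functional clonotypes kept, amino-acid clonotypes, removal of clonotypes that another library held at 100 times the count or more, a log2 scale (0.5 clonotypes added), a replicate block, each sample left out, and for segment use single V genes, summed counts, no filter and library totals only. Leaving out CDR3s of more than 20 residues, leaving out TRAV11N, and the pair among non-functional clonotypes, with and without TRAV11N, were added after seeing the data.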

Additional observations from a re-analysis of the deposited data

Results flagged for a closer look

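A search of 34 sets of values for a sample lying apart from its group gave 2 cases, and by chance alone about 1 set in 20 is found. Both were 7 months replicate 4 and the class of TRAV11 with other J genes. Its mean CDR3 length was 16.7 residues, against 13.3 to 14.0 in the other 7-month samples. Its mean number of bases between V and J was 8.55, against 1.36 to 2.05 in the others. Both values rest on 3 TRAV11-TRAJ17 clonotypes with 1 count each, of 42 residues and with V ending at base 14 and J starting at base 94 of the CDR3.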

How the results depend on the processing

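Over 599 alternatives of 29 results, 532 kept their direction and their side of the threshold, including every alternative for the CDR3 length, the functional against non-functional share of TRAV11, and the clone size of TRAJ18. Under weighting by counts, the 7-month difference of TRAV11 became -0.127, its correlation with months -0.0118, the 5-month difference of the pair -0.00351 and its correlation -0.158. Inserted bases became -0.276 for TRAV11 and -0.203 for TRAJ18, the latter no longer past the threshold. With at least 2 counts, the 5-month difference of TRAV11 became 0.0218, the 7-month difference of TRAJ18 -0.00905, its correlation -0.138, and for TRAV11 inserted bases -0.404 and clone size 0.35. With at least 10 counts, the correlation of TRAJ18 became -0.0836, and for TRAV11 inserted bases -0.336 and clone size 0.43. With non-functional clonotypes kept, the 7-month difference of TRAV11 became -0.0154. With clonotypes far more abundant in another library removed, the correlation of TRAJ18 became -0.0510 and the clone size of TRAV11 0.15. As amino-acid clonotypes, the inserted bases of TRAV11 became -0.0584. The pair excess missed the threshold under 1 alternative, among non-functional clonotypes without TRAV11N (0.0618). With pairs of 15 residues only, the 5-month difference became -0.00523 and the correlation -0.132. In segment use, the TRAV11 change from 1.5 to 7 months became -0.22 with summed counts and -0.0672 with single V genes. Between 7 and 1.5 months 1 V family, TRAV9, was called with library totals only, with no filter, with at least 2 counts and without 4 samples in turn (3 months replicate 2, 5 months replicates 1 and 2, 7 months replicate 5). Between 7 and 3 months 2, TRAV7 and TRAV14, were called with summed counts. The cause of these shifts was not tested.

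The replicate numbers in the titles recur across time points, but same-numbered samples did not deviate together (mean correlation 0.0639 over 14 pairs, -0.105 to 0.355). With a replicate block, the 7-month difference of TRAV11 became -0.0574 (exact permutation p = 0.976), its change in segment use -0.18 (edgeR adjusted p = 0.691), and 1 V family, TRAV9, was called between 7 and 1.5 months. The block changed no other call.

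With each sample left out, the TRAV11 differences ranged from -0.166 to 0.0322 at 3 months, -0.124 to 0.0737 at 5 months and -0.0555 to 0.142 at 7 months, and those of TRAJ18 from -0.0998 to 0.289, -0.00110 to 0.388 and -0.152 to 0.237. Those of the pair ranged from -0.0543 to -0.0101, -0.0172 to 0.0270 and -0.0394 to 0.00486. The correlations of TRAJ18 and the pair with months ranged from -0.269 to 0.122 and from -0.103 to 0.254. Segment use from 1.5 to 7 months ranged from -0.16 to 0.35 for TRAV11 and -0.10 to 0.18 for TRAJ18, and 0 to 1 V families were called. From 3 to 7 months the log2 fold change ranged from 0.05 to 0.36 for TRAV11 and -0.10 to -0.02 for TRAJ18, and 0 V families were called. For TRAV11 with other J genes, inserted bases ranged from -0.403 to 0.221 and clone size from -0.0846 to 0.127. Few pairs (0 to 6 functional clonotypes per sample) and few samples (2 in 2 of the groups) limit what the pair's time course can show.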
